A study of Homo sapiens with 2 samples.

Results

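DEAD and DEAH box helicases were examined at the transcript level in H6c7, an immortalised, near-normal line of human pancreatic duct epithelium, and in a derivative of that line made to express a K-ras oncogene. The members were taken as all genes whose symbol starts with DDX or DHX followed by a digit and which had a probe set naming that gene alone. This gave 40 genes, 27 DDX and 13 DHX, out of 11940 genes with such a probe set, measured by 66 probe sets. Left out were 1 Y-linked gene, an antisense RNA whose symbol matches (DHX9-AS1, signal 24.0 in the parental and 51.9 in the K-ras line), and 7 probe sets that name a helicase together with other genes. Each line was represented by 1 array, so no value has a replicate error, no difference could be tested, and ratios describe these 2 RNA samples only.

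The parental group is H6c7 as such, and the K-ras group is the same line expressing the oncogene. Whether the oncogene-bearing cells were 1 clone or a pool is not in the labels, and no vector control is named. The level of the introduced gene is not analysed here. Of 10 duct epithelium markers on the array 9 were measured, among them KRT7, KRT18, EPCAM and CDH1, and CFTR was not. Of the duct list, 4 of these 9 markers (44.4%) passed 2-fold on the lower side and none on the higher. The shares over all measured genes were 14.4% and 9.97%. The other 5 markers had log2 ratios of K-ras over parental signal of -0.32 (KRT7), -0.03 (CDH1), 0.31 (MUC1, a bound), 0.38 (KRT18) and 0.88 (KRT8). SOX9 was lower by 2.05-fold on the chosen probe set only, as its other one gave 0.04 on the log2 scale. EPCAM was lower by 2.08-fold, KRT19 by 2.74-fold and CA2, as a bound, by 5.69-fold. None of 7 acinar and endocrine markers was measured, and 4 of 7 fibroblast and 3 of 7 blood and endothelial markers were. Signals were summed over each whole list, unmeasured genes included. The fibroblast and the blood and endothelial lists summed to 275 and 162 in the parental and 371 and 301 in the K-ras line. The duct list summed to 18516 and 17036. The part of these markers in the results was not tested. The signal of the 3' over the 5' control probe set was 0.817 (parental) and 0.888 (K-ras) for GAPDH, and 1.28 and 1.10 for ACTB.

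DEAD and DEAH box proteins use ATP to open short RNA duplexes or to strip proteins from RNA, and are named after the amino acids, in one-letter code, of a motif in their ATPase core. Different members drive the rearrangements of the spliceosome, the folding of ribosomal RNA in the nucleolus, export of mRNA through the nuclear pore, translation and mRNA decay, and some recognise viral RNA. Dividing epithelial cells need most of them, while a few serve the germ line or are induced by interferon.

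Helicase transcripts stood mostly on the lower side in the K-ras line, with 22 of 34 log2 ratios under 0 and 12 over it, against 3450 under 0 and 4238 over it among all 7691 measured genes. A signal of 46.9, the higher of the medians of the 2 arrays, served as the floor. A gene was called measured when at least 1 array reached the floor, and a ratio with 1 array below the floor is a bound against it. Of the 40 genes, 34 were measured, 30 of them on both arrays. In the oncogene-bearing cells, 12 of 34 were lower by 2-fold or more (35.3%), against 14.4% of all 7691 measured genes. At least 2-fold higher was 1 of 34 (2.94%), DHX34, against 9.97% of all measured genes. The median log2 ratio of K-ras over parental signal was -0.44 over the 34 genes and 0.10 over all measured genes. At 3-fold, 6 of 34 were lower (17.6%), against 6.24% of all measured genes.

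**Figure D1:**
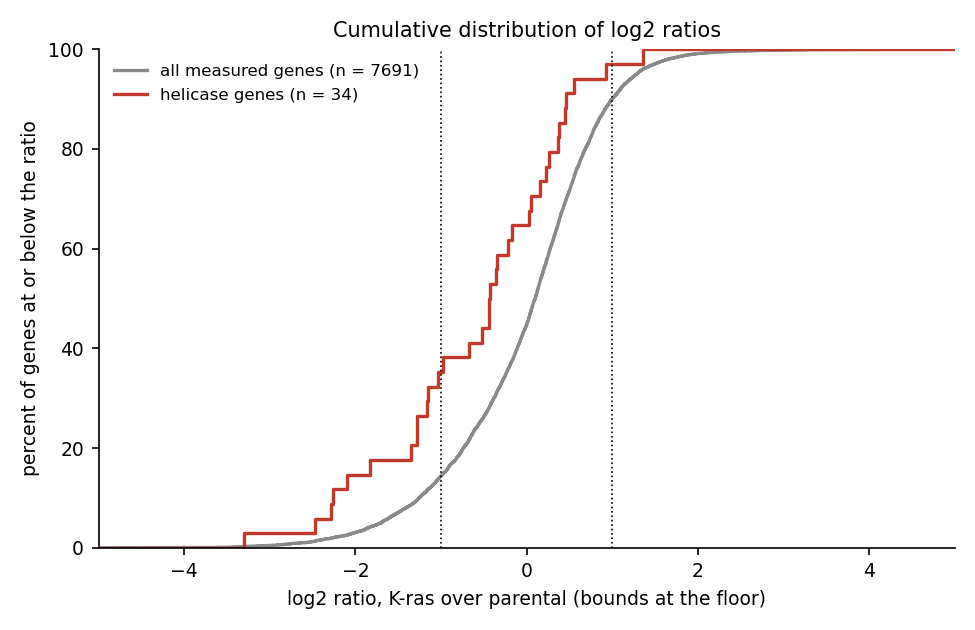
Cumulative percent of genes (vertical axis) at or below each log2 ratio of K-ras over parental signal (horizontal axis), for 34 helicase genes (red) and 7691 measured genes (grey), with dotted lines at 2-fold. At the lower 2-fold line the red curve stands at 35.3% and the grey curve at 14.4%.

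The balance depended on the scaling of the arrays. When 100 maintenance probe sets set the scale, the median of all genes at or over the floor in both samples moved up by 0.16 (log2). This scaling left 9 of 34 helicase genes lower and 2 higher (26.5% and 5.88%). The split over all measured genes turned from 1109 lower and 767 higher to 844 lower and 1093 higher (11.1% and 14.4%). With no floor, 15 of 40 helicase genes were lower and 5 higher (37.5% and 12.5%). Of all genes, 1797 were then lower and 2419 higher (15.1% and 20.3%). Both arrays were scaled to the same level, so a lower signal is lower relative to the rest of the RNA, and fewer cells with a transcript and less of it per cell cannot be told apart.

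The 6 helicase genes at least 3-fold lower were DDX1, DDX3X, DDX46, DHX15, DHX9 and DDX21, which belong to 4 different roles. All 6 lay among the lowest 5% of the 5995 genes that reached the floor in both lines. That place follows largely from the 3-fold cut, which 6.24% of all measured genes passed on the lower side. These 6 and DDX39A were at least 2-fold lower under every alternative setting that measured them, while the calls of DDX17, DDX23, DDX24, DDX60 and DHX40, and that of DHX34 on the higher side, were lost under at least 1. Not every setting could change a call. DDX21, DDX46 and DDX39A have 1 probe set each, so other floor percentiles and probe set choices returned the reported value. Without _x_at and _s_at probe sets, these 3 and DHX9 were not measured. Helicase genes with bright probe sets contributed most of the lower calls. Of the 2564 measured genes with the brightest probe sets, by mean log2 signal over both arrays, 14.1% were at least 2-fold lower, and of the 14 helicase genes among them 7 were. Of the 15 helicase genes of middle brightness 4 were lower, against 18.0% of all genes there, and of the 5 dimmest 1 was, against 11.2%.

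**Figure D2:**
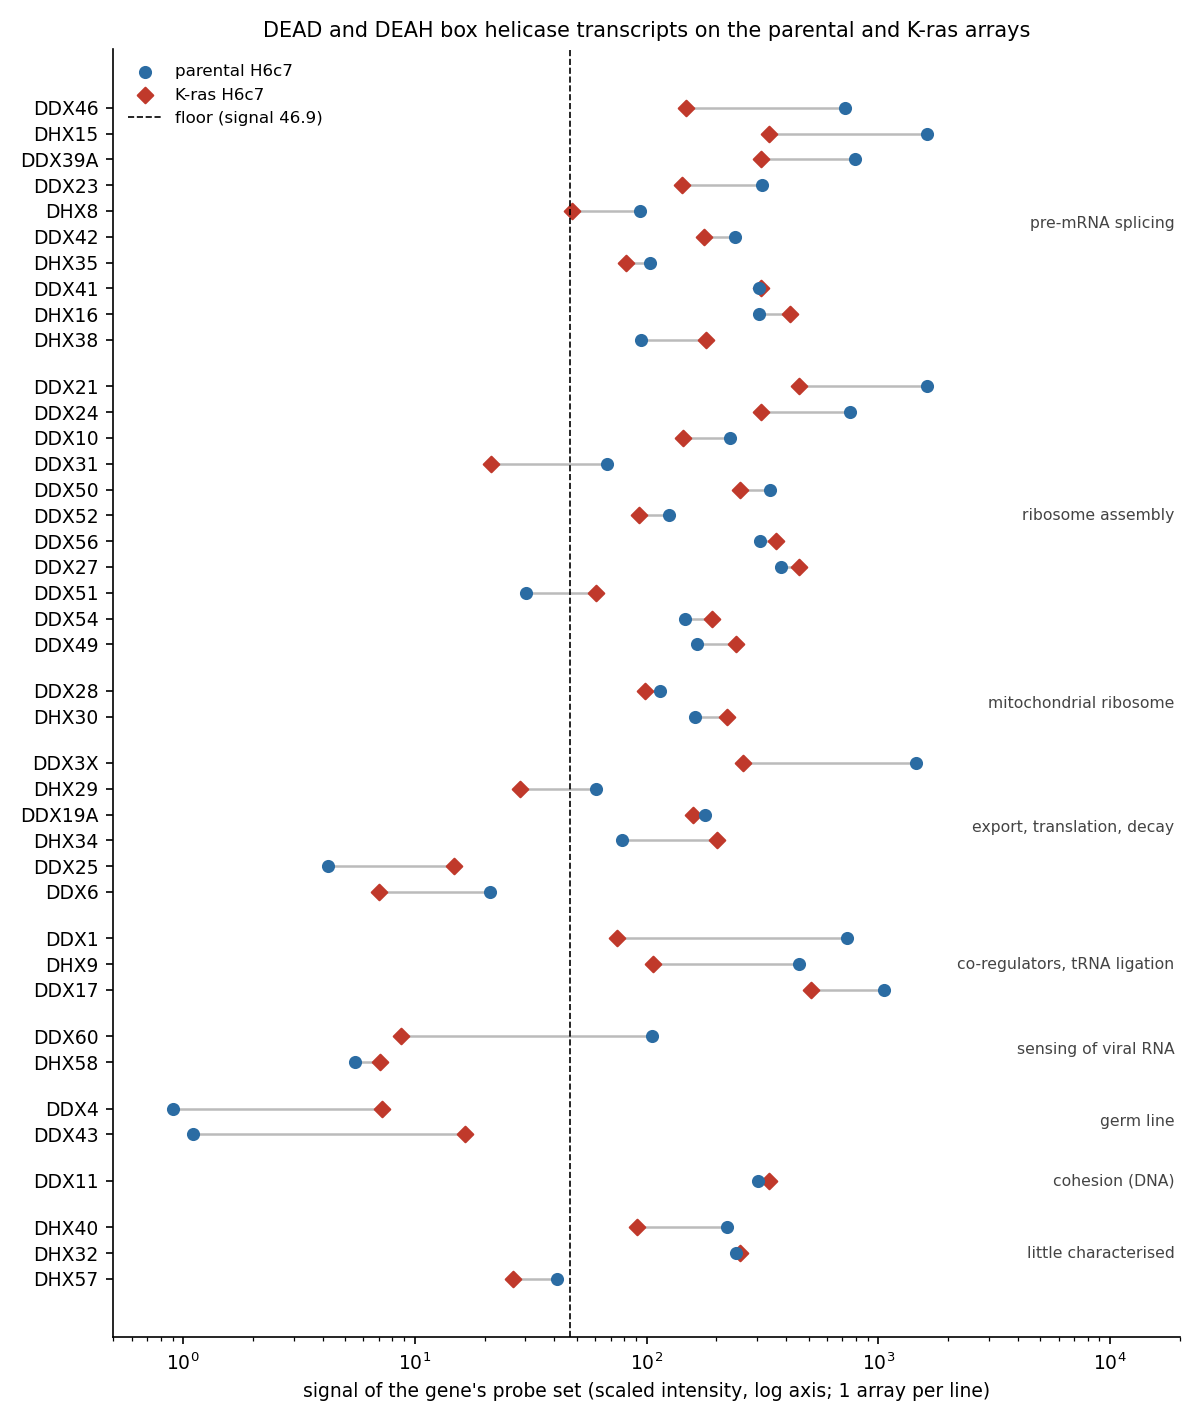
Signal of each of the 40 helicase genes on the parental (blue circles) and K-ras (red diamonds) arrays, on a log axis in scaled intensity, grouped by role, with the floor of 46.9 as a dashed line. The K-ras diamond lies well left of the parental circle for DDX1, DDX3X, DHX15, DDX46, DHX9 and DDX21. It also does for DDX60, from 105 to 8.70, under the floor. On both arrays, 6 genes lie left of the floor.

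Among the helicases of pre-mRNA splicing, 4 of 10 were lower by 2-fold or more (40%, against 14.4% of all measured genes) and none was higher by as much (against 9.97%). Their median log2 ratio was -0.71. DDX46, which acts on the U2 snRNP when the branch site is first recognised, had a signal of 716 in the parental and 147 in the K-ras line, 4.86-fold lower on its only probe set. DHX15, which takes spent and stalled spliceosomes apart, had a signal of 1619.9 in the parental and 336 in the K-ras line, 4.82-fold lower. Its second probe set gave 871 and 128, a log2 ratio of -2.76 beside -2.27. Both DHX15 probe sets thus passed 2-fold in the same direction.

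DDX39A, which serves splicing and mRNA export, had a signal of 796 in the parental and 312 in the K-ras line, 2.55-fold lower. DDX23, the U5 snRNP helicase that lets U6 replace U1 at the splice site, had 316 and 142, 2.23-fold lower, but its second probe set stood at -0.49 on the log2 scale. DHX8, which releases the spliced mRNA, had 93.7 and 47.5, a ratio of 1.97-fold that rests on a K-ras signal just above the floor. It passed 2-fold with median centring and with the loess curve, at a log2 ratio of -1.08 in each, and in no other alternative. As reported, it was the gene nearest to the threshold from the other side, while DDX17 was the nearest among those counted as lower.

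Other spliceosomal helicases had ratios near 1 or above it. DDX42 and DHX35, components of early and late spliceosomes, had log2 ratios of -0.44 and -0.35. DDX41 was at 306 in the parental and 312 in the K-ras line, a log2 ratio of 0.03 that took either sign across alternative settings. DHX16, which starts the first catalytic step, had 307 and 417, a log2 ratio of 0.44. DHX38, which acts between the catalytic steps, had 94.9 and 179.7, a log2 ratio of 0.92. The DEAH helicases that act one after another in the splicing cycle therefore spanned log2 ratios from -2.27 for DHX15 to 0.92 for DHX38.

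Of the nucleolar and ribosome assembly helicases, 2 of 11 were lower by 2-fold or more (18.2%), a share near the 14.4% of all measured genes. None was higher by as much, and the median log2 ratio was -0.43. DDX21, which links ribosomal RNA transcription and processing, had a signal of 1622 in the parental and 455 in the K-ras line, 3.57-fold lower on its only probe set. DDX24, a nucleolar helicase, had 757 and 312, 2.43-fold lower, and a second probe set at a log2 ratio of -0.58. None of the other 9 passed 2-fold as reported, and for 2 of them, DDX31 and DDX51, the value is a bound.

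DDX10, a helicase of the small ribosomal subunit pathway, had signals of 229 and 143, a log2 ratio of -0.68. DDX50, the close relative of DDX21 that lies next to it on chromosome 10, had 343 and 253, a log2 ratio of -0.44, so the neighbouring genes differed in their log2 ratios by 1.40. DDX52 had a log2 ratio of -0.43, with its other probe sets at -0.48 and -1.29. Only 1 of the 3 probe sets of DDX52 passed 2-fold.

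DDX56, DDX27, DDX54 and DDX49, all nucleolar, were on the higher side at log2 ratios of 0.23, 0.26, 0.38 and 0.56, each under 2-fold. DDX27 was read by an uncertain _x_at probe set, which can pick up related transcripts, and a second probe set gave 0.73. DDX31 went from 67.4 in the parental line to 21.3, under the floor, with K-ras, at least 1.44-fold lower. DDX51 was under the floor at 30.2 in parental cells and at 60.6 in K-ras cells, at least 1.29-fold higher. With the floor at the 30th percentile, or with no floor, both passed 2-fold, at log2 ratios of -1.66 and 1.005. In the mitochondrial ribosome pair, DDX28 had a log2 ratio of -0.22 and DHX30 one of 0.46, and second probe sets gave -0.08 and 0.33.

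Helicases of mRNA export, translation and decay went both ways, with 1 of 4 measured genes at least 2-fold lower and 1 higher, too few to set against the shares over all genes. DDX3X, which helps translation of mRNAs with structured leaders, had a signal of 1453 in the parental and 262 in the K-ras line, 5.54-fold lower. Its other probe sets that reached the floor in both lines gave 483 and 108, and 282 and 104 on an uncertain _x_at probe set, log2 ratios of -2.16 and -1.44. A further probe set read 181 in parental cells and 21.4, under the floor, in K-ras cells, at least 3.86-fold lower. All 4 probe sets of DDX3X that reached the floor were lower.

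DHX34, a factor of nonsense-mediated decay, had a signal of 78.4 in the parental and 200.5 in the K-ras line, 2.56-fold higher. A second probe set read 10.2, under the floor, in parental cells and 82.7 in K-ras cells, at least 1.76-fold higher. DHX29, which helps the ribosome scan structured leaders, read 60.3 in parental cells and 28.4, under the floor, in K-ras cells. Its bound of 1.29-fold comes from the probe set with the higher mean log2 signal, while the other had 168.5 and 4.4, at least 3.59-fold lower. DDX19A, a close relative of the nuclear pore helicase that strips proteins from exported mRNA and uncertain for that likeness, had 178 and 159, a log2 ratio of -0.17 that turned to 0.03 with the 100 maintenance probe sets and stayed negative in every other alternative that measured it, and its second probe set gave -0.73. DDX6, the decay and granule helicase, was below the floor on both arrays at 21.1 and 7.0, as was DDX25 at 4.2 and 14.8.

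The 3 co-regulator and tRNA ligation helicases were all at least 2-fold lower, too few to set against the 14.4% of all measured genes. DDX1, a subunit of the tRNA ligase complex, had a signal of 732 in the parental and 74.2 in the K-ras line, 9.87-fold lower on its only probe set. It ranked 15th from the lowest of 5995 genes. DHX9, which resolves long duplexes and couples transcription to RNA processing, had 456 and 107, 4.28-fold lower. Its other probe sets were under the floor in K-ras cells, at 236 and 40.9 (at least 5.03-fold lower) and at 86.4 and 17.4 (at least 1.84-fold). DDX17, a co-activator and splicing regulator, had 1054 and 513, 2.06-fold lower, just past the threshold. Another, uncertain DDX17 probe set had 36.6, below the floor, and 61.9, a bound on the higher side.

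DDX60, an interferon-induced helicase of antiviral defence, read 105 in parental cells and 8.70, under the floor, in K-ras cells, at least 2.24-fold lower. DHX58, a regulator of the RIG-I type sensors, was below the floor on both arrays at 5.50 and 7.10. The germ line helicases DDX4 and DDX43 were below it too, at 0.90 and 7.20 and at 1.10 and 16.4. DDX11, a DNA helicase of sister chromatid cohesion with near-identical copies elsewhere in the genome, had 302 and 337 on an uncertain _x_at probe set, a log2 ratio of 0.16.

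Of the little characterised members, DHX40 had 222 in the parental and 91.0 in the K-ras line, 2.44-fold lower on its only probe set. DHX32 had 244 and 253, a log2 ratio of 0.06 that was negative with median centring (-0.04) and positive in the other alternatives. DHX57 was below the floor on both arrays at 41.2 and 26.6. By symbol, 9 of 23 measured DDX genes (39.1%) and 3 of 11 DHX genes (27.3%) were at least 2-fold lower, against 14.4% of all measured genes. Their median log2 ratios were -0.44 and -0.35.

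**Figure D3:**
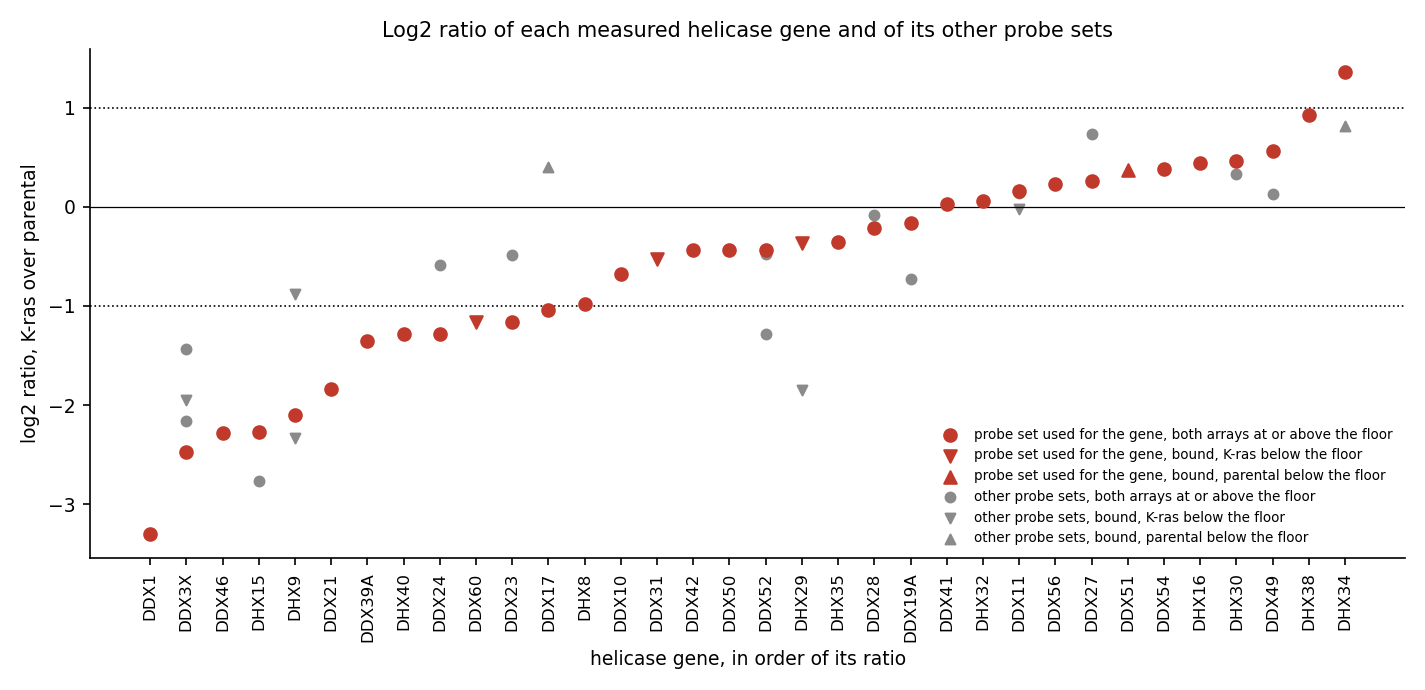
Log2 ratio of K-ras over parental signal (vertical axis) for the 34 measured helicase genes in order of their ratio (horizontal axis), with the probe set used for the gene in red and its other probe sets in grey, triangles marking bounds and dotted lines marking 2-fold. DDX1 at -3.30 and DHX34 at 1.35 are the ends of the order, and the grey points of DDX3X and DHX15 all lie below the lower line.

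Repeated probe sets gave the only repeat measurement. Of 11 helicase genes with several probe sets that reached the floor in both lines, all probe sets of a gene had the same sign in 11, and all were on the same side of 2-fold in 8. The other 3 were DDX23, DDX24 and DDX52. Probe sets with a bound were not counted there, and some differed in sign. DDX17, called lower at a log2 ratio of -1.04, had a bound of 0.40 on another probe set. DDX11, at 0.16, had a bound of -0.02. Pooled over 1671 genes of the whole array, probe sets for the same gene differed in log2 ratio by a standard deviation of 0.46. This spread lies within the same 2 RNA samples and says nothing of other cultures or RNA samples. Whether it is measurement error or a difference between the stretches of RNA read was not tested. Of the 40 helicase genes, 25 had a single probe set.

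**Figure D4:**
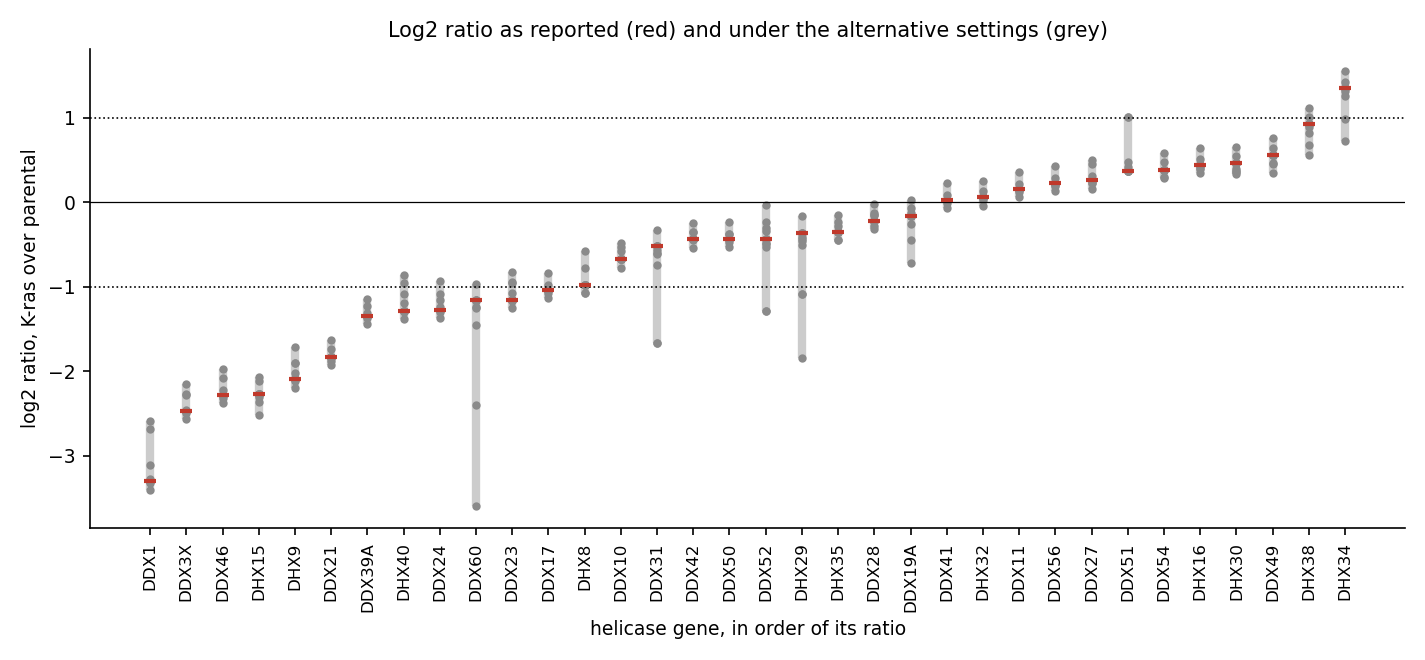
Log2 ratio of the 34 measured helicase genes as reported (red bars) and under each alternative setting (grey points, with a grey band over their range), in order of their ratio, with dotted lines at 2-fold. DDX1, DDX3X, DDX46, DHX15, DHX9, DDX21 and DDX39A stay below the lower line throughout, and the long bands of DDX60, DDX31 and DHX29 come with K-ras signals under the floor. DDX52, above the floor on both arrays, also has a long band, from -1.29 to -0.04. Its lowest value comes from another probe set.

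Promoter sequences were compared because many of the genes were lower together. RefSeq promoters of GRCh38.p14 were found for 37 of the 40 genes, 32 of them measured, and the 250 bases before the start site were searched on both strands for 6 motifs, each on its own, so that matches of different motifs may overlap. The ETS motif CCGGAAG, a core bound by a family of factors downstream of RAS signalling, was in 12 of 32 helicase promoters (37.5%), against 8.82% of all 27305 promoters and 15.8% of those of measured genes. It was in 3 of 12 promoters of helicase genes at least 2-fold lower (25%) and in 9 of the other 20 (45%), a smaller share among the lower genes. Of all measured genes at least 2-fold lower, 16.1% had it. The E-box CACGTG, read by MYC among others, was in 6 of 32 (18.8%), against 6.49% of all promoters and 9.18% of measured ones. It was in 1 of the 12 (8.33%), against 10% of all genes at least 2-fold lower.

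The CRE motif TGACGTCA was in 4 of 32 promoters (12.5%), those of DDX10, DDX19A, DDX28 and DDX51, against 1.77% of all and 3.14% of measured ones. It was in 0 of the 12, against 3.79% of all genes at least 2-fold lower. The CCAAT box CCAAT was in 14 of 32 (43.8%) against 33.0% of all and 36.4% of measured ones. The GC box GGGCGG was in 19 of 32 (59.4%) against 42.3% of all and 67.7% of measured ones. The core of the interferon response element, GAAA repeated after any 2 bases, was in 2 of 32 (6.25%) against 3.07% of all and 2.59% of measured ones. Both were among the 12 (16.7%), against 3.05% of all genes at least 2-fold lower, a share that rests on 2 genes. These matches describe letters in a window, not bound sites.

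The following promoters, chosen after the values were seen, show the lowest gene (DDX1), the neighbours DDX21 and DDX50 that share a motif but differ in ratio, the pair with the interferon element (DHX15 and DDX60), and the gene that was higher (DHX34). Each gives the 250 bases before the start site, on the strand of the gene. Capitals mark the ETS motif in DDX1, DDX21 and DDX50, the interferon element in DHX15 and DDX60 and the E-box in DHX34. They lie at chr2:15591618-15591867 (plus strand), chr10:68955920-68956169 (plus), chr10:68901065-68901314 (plus), chr4:24584555-24584804 (minus), chr4:168318753-168319002 (minus) and chr19:47349065-47349314 (plus), in the order given.
DDX1: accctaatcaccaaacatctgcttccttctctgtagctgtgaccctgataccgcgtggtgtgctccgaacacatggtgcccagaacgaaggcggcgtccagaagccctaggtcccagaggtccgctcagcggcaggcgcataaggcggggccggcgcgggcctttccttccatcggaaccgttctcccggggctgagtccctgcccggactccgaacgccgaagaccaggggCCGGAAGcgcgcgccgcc
DDX21: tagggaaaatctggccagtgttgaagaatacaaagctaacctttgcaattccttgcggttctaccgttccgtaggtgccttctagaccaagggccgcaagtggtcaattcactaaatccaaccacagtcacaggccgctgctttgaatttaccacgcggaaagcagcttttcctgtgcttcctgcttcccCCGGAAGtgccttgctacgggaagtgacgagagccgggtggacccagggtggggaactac
DDX50: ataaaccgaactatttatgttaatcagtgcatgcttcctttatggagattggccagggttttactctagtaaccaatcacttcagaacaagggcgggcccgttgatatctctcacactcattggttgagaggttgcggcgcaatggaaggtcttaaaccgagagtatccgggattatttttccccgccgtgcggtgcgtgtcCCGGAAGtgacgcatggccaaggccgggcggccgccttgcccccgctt
DHX15: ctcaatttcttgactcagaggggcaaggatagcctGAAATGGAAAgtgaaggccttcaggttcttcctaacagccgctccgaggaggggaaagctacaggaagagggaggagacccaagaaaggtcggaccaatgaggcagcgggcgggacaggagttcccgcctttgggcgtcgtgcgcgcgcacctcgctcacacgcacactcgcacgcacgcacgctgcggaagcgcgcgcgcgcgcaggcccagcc
DDX60: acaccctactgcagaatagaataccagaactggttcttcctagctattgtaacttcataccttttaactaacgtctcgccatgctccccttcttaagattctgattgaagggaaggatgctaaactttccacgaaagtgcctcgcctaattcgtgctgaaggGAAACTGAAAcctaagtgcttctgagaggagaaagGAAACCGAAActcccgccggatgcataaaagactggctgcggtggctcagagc
DHX34: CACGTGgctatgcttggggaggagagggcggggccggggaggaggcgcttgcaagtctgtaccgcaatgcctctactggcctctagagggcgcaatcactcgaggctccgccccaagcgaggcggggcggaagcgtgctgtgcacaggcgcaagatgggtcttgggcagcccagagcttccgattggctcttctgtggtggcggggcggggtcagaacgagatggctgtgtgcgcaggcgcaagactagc

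In DDX1 the ETS motif starts 18 bases before the start site, in DDX21 60 and in DDX50 48. DDX60 has 2 interferon elements, starting 88 and 53 bases before its start site, and DHX15 has 1, at 215. The E-box of DHX34 is at the far edge of the window, 250 bases out. DDX21 and DDX50 thus share the motif within similar distances, at log2 ratios of -1.83 and -0.44.

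RNA helicases that carry other names were set beside the family. Of the 10 that were measured, 5 passed 2-fold on the lower side (50%, against 14.4% of all measured genes) and none on the higher, and the median was -1.01. ASCC3, a helicase that clears collided ribosomes, read 507 in parental cells and 6.30, under the floor, in K-ras cells, at least 10.8-fold lower. DICER1, which cuts microRNA precursors, had 288.5 and 30.7, at least 6.15-fold lower. MTREX, the helicase of the nuclear exosome, had 307 and 67.1, 4.57-fold lower, the intron-binding helicase AQR was 2.75-fold lower and HELZ 2.28-fold.

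EIF4A3, the DEAD box core of the exon junction complex, had 1250 in the parental and 700.5 in the K-ras line, a log2 ratio of -0.84, and EIF4A1 and EIF4A2 are not reported here. The nonsense-mediated decay helicase UPF1 and the cytoplasmic exosome helicase SKIC2 were on the other side, each at a log2 ratio of 0.97 and under 2-fold, and a second UPF1 probe set gave -0.04. UPF1 and DHX34, which act in the same decay pathway, both had a chosen probe set on the higher side. Genes of that pathway were not listed as a group, so no direction is given for it. EIF4A3 and its measured partners RBM8A and UPF2 were on the lower side. The log2 ratios of these partners were -0.68 for RBM8A and -0.66, as a bound, for UPF2.

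Partner proteins were described list by list, beside the 14.4% of all measured genes that were at least 2-fold lower and the 9.97% that were higher. The lists hold 2 to 19 measured genes, so a single gene moves a share by several percentage points or more. In the tRNA ligase complex around DDX1, 1 of 4 measured genes was at least 2-fold lower (25%), FAM98A at 2.52-fold, and the ligase RTCB itself had a log2 ratio of -0.12 beside the -3.30 of DDX1. Of 10 mRNA export partners 3 were lower (30%), the THO subunits THOC1 (at least 3.31-fold), THOC7 (3.19-fold) and THOC2 (at least 2.05-fold), and none was higher, while the list's median was 0.38. Of 7 decay partners of DDX6, 1 was lower (14.3%, near the share over all genes), the decapping enzyme DCP2 at 4.22-fold as a bound. Of 5 eIF4A cofactors 1 was lower (20%), the cap-binding protein EIF4E at 3.42-fold. Of 4 SMN complex genes, which build snRNPs, 1 was lower (25%), GEMIN6 at 3.59-fold. Neither of 2 measured exon junction partners passed 2-fold.

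Among 11 G-patch cofactors, which switch DEAH helicases on, AGGF1 was at least 3.62-fold lower and RBM10 2.45-fold higher (9.09% each), with a list median of -0.05. Among 19 ribosome assembly factors 5 were lower (26.3%) and 2 higher (10.5%), with a median of -0.31. WDR43 was at least 5.52-fold, UTP20 at least 4.15-fold, WDR12 2.60-fold and UTP18 2.28-fold lower, while RRP12 was 2.97-fold and PES1 2.67-fold higher. Among 11 genes of viral RNA sensing 4 were lower (36.4%) and 3 higher (27.3%). TBK1 was at least 2.77-fold and IFIT1 2.26-fold lower and MX1 had a log2 ratio of -1.58, and IRF7 was 3.17-fold, TRIM25 2.51-fold and ISG15 2.28-fold higher, so DDX60 did not share its side with all interferon-induced genes.

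**Figure D5:**
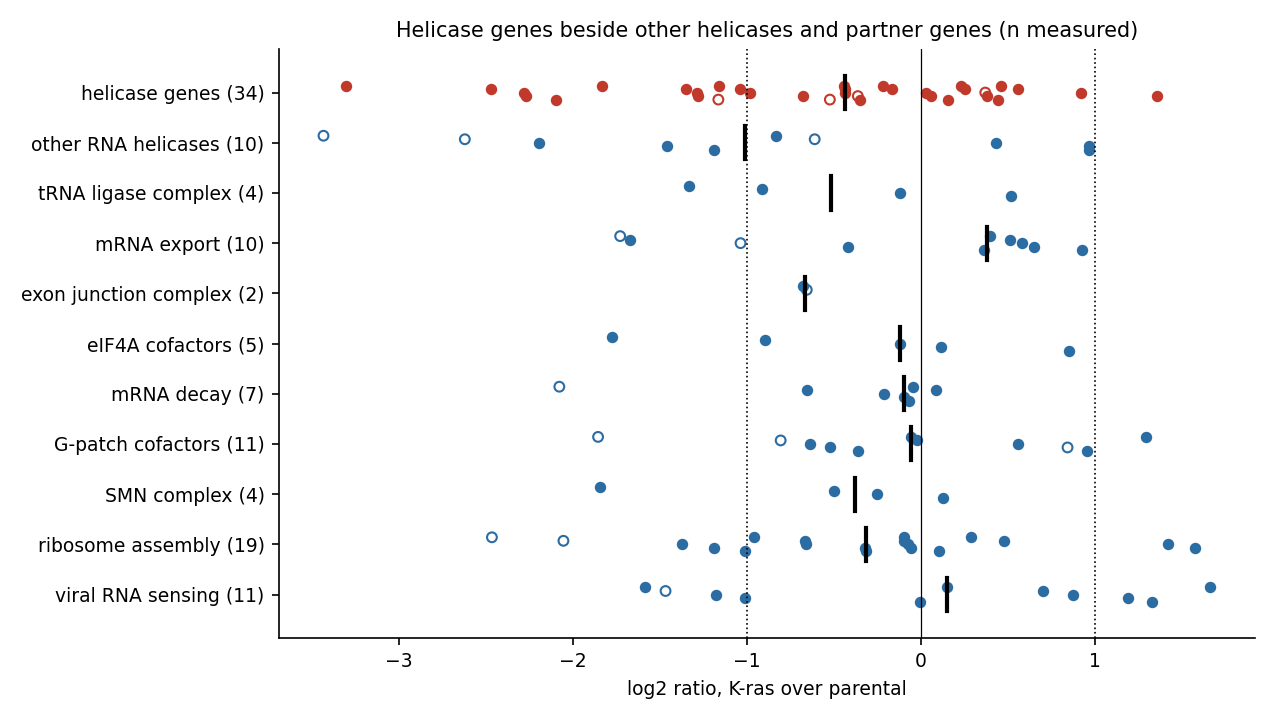
Log2 ratio of K-ras over parental signal (horizontal axis) for the 34 helicase genes (red) and for the measured genes of 10 lists of other helicases and partners (blue), with open circles for bounds, black bars for list medians and dotted lines at 2-fold. The median bar stands at -0.44 for the helicase genes, -1.01 for other RNA helicases and 0.38 for mRNA export partners.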

How the data were processed

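RNA of 1 parental and 1 K-ras sample was hybridised to Affymetrix U133A arrays. The deposited table holds 1 linear intensity per probe set and array for 22283 probe sets, 68 of them controls. The name of the software that made them was not given in the sources used here. Equal trimmed means (150.06 in both columns, 2% left out at each end) show values already scaled. Of the probe sets, 19071 name 1 gene, 1043 several and 2169 are unnamed here, and 19059 matched GRCh38.p14 by gene number.

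The columns were set to the same trimmed mean, and 23 Y-linked genes were left out. Each gene was represented by the probe set with the highest mean log2 signal, and called at 2-fold. Bacterial control probe sets reached at most 36.3, under the floor. With 1 array per group there are no p-values, and precision is limited by that number. All members are named, and of each partner list up to 6 genes past 2-fold, largest first. Members, lists and roles were chosen with earlier results of these data known, and partner genes under 2-fold were named after their values were seen. The procedure was tested on simulated data. Python 3.11.15, numpy 2.4.6, pandas 2.3.3, statsmodels 0.14.6 and matplotlib 3.10.9 were used.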

Additional observations from a re-analysis of the deposited data

How the results depend on the processing

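The count of helicase genes at least 2-fold lower was 12 and lay between 6 and 15 over 13 alternatives, which measured 19 to 40 helicase genes. It was 6 of 19 measured without _x_at and _s_at probe sets (31.6%, against 15.5% of all genes measured there). With a threshold of 3-fold it was 6 of 34 (17.6%, against 6.24% of all measured genes). The count at least 2-fold higher was 1 and rests on few genes. It was 2 with quantile normalization, the 100 maintenance probe sets or a floor at the 30th percentile, 5 with no floor, and 0 with a floor at the 70th percentile, the floor as a pseudocount, without _x_at and _s_at probe sets, or at 3-fold. The median log2 ratio stayed negative, between -0.60 and -0.24, over the 12 alternatives that give one. Of the 12 lower genes 7 stayed at least 2-fold lower in every alternative that measured them. DDX17, DDX23, DDX24, DDX60 and DHX40 did not. Of 386 alternative values of single genes, 371 moved by less than the spread between probe sets (0.46), 15 moved by more, and none of a gene past 2-fold turned its sign. Many of these values could hardly move. The values as deposited nearly repeat the reported ones, and a gene with 1 probe set well above the floor keeps its value under several settings. The alternatives named here were planned, except 1, the probe set with the highest signal on either array, added after the data were seen, which gave 14 lower and 1 higher. No paired analysis was possible because each line has 1 array, and leaving out an array would leave no comparison. Signals near the floor give bounds or ratios close to bounds.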
